A study of Mus musculus with 9 samples.

Results

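The RNA described here is that of the wild-type mouse ovary at 3 weeks of age, taken from the 3 arrays titled wild type out of 9 in the series. The members are all probe sets that carry a gene symbol in the deposited annotation, 25100 of 28266, and 24949 of them name 1 gene, for 22231 genes in all. For a gene with several probe sets the one of highest mean was used. The study profiled total ovarian RNA of wild-type mice, of mice heterozygous for Taf4b and of mice labelled Taf4b knockout, with 3 mice of each genotype and 1 array per mouse. TAF4b is a subunit of the general transcription factor TFIID that is enriched in germ cells and granulosa cells. The wild-type mice carry no targeted allele that the labels name, and no source used here gives their strain. The ovary was taken whole, so a level is a sum over all its cell types, and fewer cells of a type cannot be told apart from less RNA per cell. The heterozygous and the labelled knockout mice enter below for the spread between mice within each genotype, and no genotype is compared with another.

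An ovary shortly before puberty holds oocytes in follicles at stages from primordial to early antral. A growing oocyte is enclosed by granulosa cells, which divide, feed it amino acids and nucleotides through gap junctions and secrete inhibin and anti-Mullerian hormone. Theca cells outside the follicle's basement membrane make androgen, which granulosa cells turn into estrogen. Before the first ovulation there is no corpus luteum. The 3 mice are separate animals of 1 group, so the values below are levels, ranks and spreads, with no contrast and no test.

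Values are log2 of the deposited linear intensities. A rank is a rank of signal, not of transcript number, because probe sets differ in the number and affinity of their probes. The arrays were alike in overall signal, with median intensities from 124 to 126, and the log2 values of all members correlated across probe sets at 0.996 to 0.998 between mice. These probe sets share the array design, so that correlation describes the arrays and does not test them. As a level for absent transcripts the 95th percentile of 1142 olfactory receptor probe sets was used, since these receptors belong to the nose. It lay at 5.70, an intensity of 51.8, against a median of 4.02 for the receptors. Of all members, 71.5% had a mean above this level. Counting 1 probe set per gene, 71.9% of genes lay above it on the mean and 70.3%, or 15637 genes, in each of the 3 mice. The level is a convention, since 1 receptor, Olfr976, reached 8.97.

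**Figure D1:**
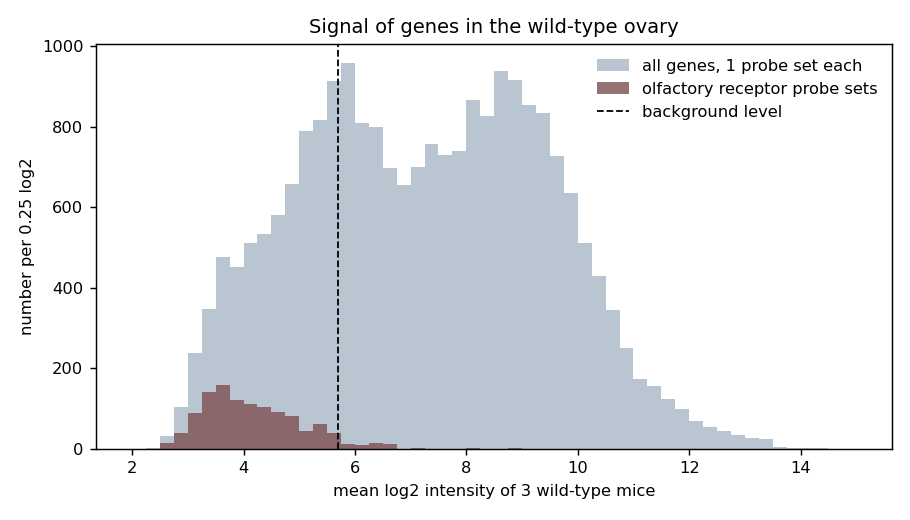
The horizontal axis is the mean log2 intensity of 3 wild-type mice and the vertical axis the number of genes, or of olfactory receptor probe sets, per 0.25 log2. Genes had a median of 7.27 and reached 14.47, while the receptors had a median of 4.02; the dashed line is the background level of 5.70.

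Signal was concentrated in few genes. The top 10% of genes by signal, 2223 genes, began at 10.05 and held 53.0% of the summed intensity over genes. The 100 brightest genes held 9.18% of it. Among these 100 were 29 cytosolic ribosomal protein genes or their named pseudogenes, 8 mitochondrially encoded genes, 10 replication-dependent histone genes and 19 predicted genes or clones. The remaining 34 were named genes of other kinds.

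The brightest gene was the 28S ribosomal RNA, Rn28s1, at 14.47. That name came from updating the symbols, and the deposited symbol of its probe set was LOC236598. Eef1a1, the factor that brings transfer RNA to the ribosome, was next, at 14.12, 14.05 and 14.05 in wild type 1, 2 and 3. Its mean was 14.07 ± 0.041 (SD, n = 3). Gapdh, a glycolytic enzyme, reached 13.82, 13.79 and 13.72. Actb, cytoplasmic actin, reached 13.76, 13.78 and 13.62. The mice of these genes lay within 0.16 of each other. A probe set named Pigt held rank 3 at 14.06, but the deposited description of that probe set is of a neuronal development-associated mRNA. Another probe set, described as Pigt itself, a subunit of the enzyme that attaches glycolipid anchors, read 10.30, so the rank of Pigt is uncertain.

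Of the 30 brightest named genes, 26 had an SD below 0.1 between mice. Over all genes the SD had a median of 0.077 and a 75th percentile of 0.126. The dimmest of the 30 had a mean of 12.89. They hold chaperones, such as Hspa8 at 13.39 ± 0.083 and Hsp90ab1 at 13.05 ± 0.015 (SD, n = 3). The dimmest Hspa8 probe sets read 9.55, 10.50 and 10.54, with an SD of 0.56. Ubb, a ubiquitin gene, had a mean of 13.29 ± 0.064. Tubulins were represented by Tuba1b at 13.32 ± 0.030, and translation by Pabpc1, which binds poly(A) tails, at 13.16 ± 0.0030. Ppia, a prolyl isomerase, and Atp5b, a subunit of ATP synthase, had means of 13.20 and 12.89. Several of these genes have near-identical copies or processed pseudogenes, among them Gapdh with 29 probe sets, actin, tubulin, ubiquitin and histone genes, so their signals can include those of their copies.

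Some groups of genes described by name were bright as groups. The 120 cytosolic ribosomal protein genes and named pseudogenes had a median of 12.01, and 86 of them lay in the top 10%. Their brightest were Rpl10 at 13.63, Rplp0 at 13.46 and Rps2 at 13.45. All 9 mitochondrially encoded genes, which code for parts of the respiratory chain and of ATP synthase, lay in the top 10%, led by CYTB at 13.68, COX1 at 13.67 and ATP6 at 13.26. The 51 replication-dependent histone genes had a median of 9.65, with 25 in the top 10%, led by H3c13 at 13.36. Median SDs between mice were 0.046 for the ribosomal, 0.040 for the mitochondrial and 0.088 for the histone genes, beside 0.077 for all genes.

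At the other end, 56 of 1102 olfactory receptor genes and 7 of 196 vomeronasal receptor genes lay above the level, with medians of 4.04 and 3.65. The vomeronasal receptors took no part in setting the level. Of all genes, 71.9% lay above the level, and their median was 7.27. Zinc finger protein genes, many of them transcription factors, were mostly measured as present: 325 of 344 lay above it, at a median of 7.76. The brightest was Zfp57, which maintains methylation at imprinted genes, at 11.32, 11.31 and 11.06.

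Sex-linked genes other than Sry had the pattern of a female tissue. Xist, the RNA that silences an X chromosome in female cells, read 10.72, 10.68 and 10.66, a mean of 10.69 ± 0.028 (SD, n = 3). Of 8 measured genes in the list of Y-linked genes, 7 lay between 2.92 and 4.65, below the level. Sry, the testis-determining gene, read 6.97, 7.02 and 6.92, above the level, in all 3 mice alike.

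Gene lists for cell types and functions, 29 in all, held 343 genes, of which 339 were measured. Their medians ran from 3.69 for the Y-linked genes to 12.88 for cytoskeleton and chaperones. Of the 29 lists, 19 had a median above that of all genes, 7 had a median within the top 10%, and 4 had a median below the background level. Among lists for a cell type, those of zona proteins and oocyte growth factors, granulosa cells and fibroblast stroma had the highest medians. Counts above the level in each list stand beside 71.9% of all genes, and counts in the top 10% beside 10%. A count near that share does not mark a cell type.

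**Figure D2:**
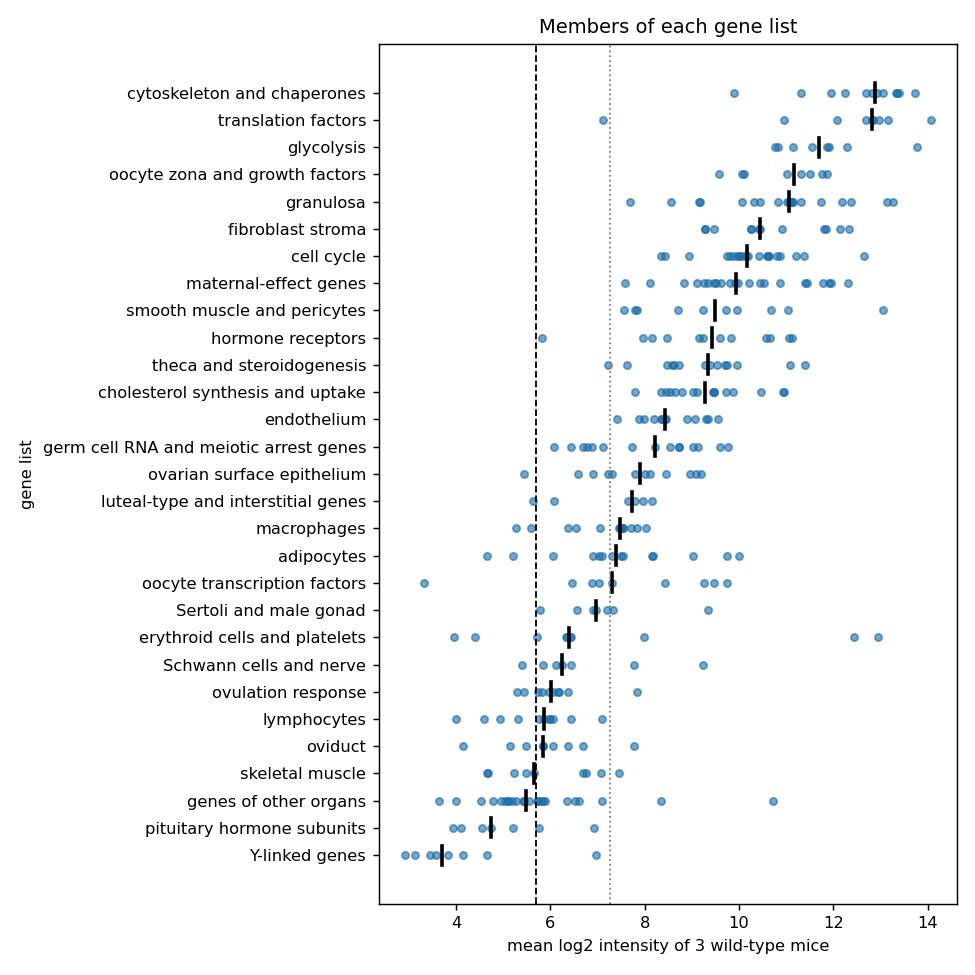
Each point is a gene placed at its mean log2 intensity over 3 wild-type mice, in rows by gene list, with a black bar at the median of the list. The dashed line is the background level of 5.70 and the dotted line the median of all genes, 7.27; the list of zona and growth factor genes has its median at 11.16, that of granulosa genes at 11.05 and that of Y-linked genes at 3.69.

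The oocyte's coat and its secreted growth factors were among the brightest genes of the ovary. All 8 genes of that list lay above the background level and 7 in the top 10%, against 71.9% and 10% of all genes. Zp3, a filament protein of the zona pellucida, read 12.13, 11.85 and 11.63, a mean of 11.87 ± 0.25 (SD, n = 3) at rank 309. Zp2, which is cleaved after fertilization, read 11.99, 11.71 and 11.55. Zp1, which cross-links the filaments, read 11.57, 11.26 and 11.11. In each of these genes wild type 1 was highest and wild type 3 lowest.

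Of the growth factors that the oocyte sends to its granulosa cells, Bmp15 ranked above Zp1, and Gdf9 ranked below all of these zona genes. Bmp15 read 11.66, 11.51 and 11.35, with a mean of 11.50 ± 0.16 (SD, n = 3). Gdf9 read 11.17, 11.06 and 10.80. Kit, the receptor through which granulosa cells stimulate oocyte growth, read 10.35, 9.99 and 9.84. Oosp1 and Oas1d, both oocyte-restricted genes, were the least spread, with SDs of 0.060 and 0.13 around 10.09 and 9.57.

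The promoters of Zp3 and Bmp15 are shown because these genes are bright and varied in the same order between mice. CANNTG, the E-box core bound by basic helix-loop-helix factors such as FIGLA, is in capitals; the pattern reads alike on both strands. Each window runs from 250 bases before to 50 after the start of transcription in RefSeq on GRCm38.p6. Zp3 lies on the plus strand at chr5:135979855-135980154, with 4 matches, and Bmp15 on the minus strand at chrX:6320675-6320974, with 1 match.
Zp3: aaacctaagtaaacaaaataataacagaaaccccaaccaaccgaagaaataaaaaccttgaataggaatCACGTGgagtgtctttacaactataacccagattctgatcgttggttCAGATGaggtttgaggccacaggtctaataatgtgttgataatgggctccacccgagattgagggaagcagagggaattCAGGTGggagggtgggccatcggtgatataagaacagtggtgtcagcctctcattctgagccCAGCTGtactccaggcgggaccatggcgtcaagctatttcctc
Bmp15: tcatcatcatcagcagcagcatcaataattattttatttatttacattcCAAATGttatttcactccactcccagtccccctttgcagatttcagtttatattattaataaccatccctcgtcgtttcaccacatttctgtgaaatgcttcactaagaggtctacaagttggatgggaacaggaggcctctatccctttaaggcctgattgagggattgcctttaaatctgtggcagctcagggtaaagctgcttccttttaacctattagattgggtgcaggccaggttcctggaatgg
CANNTG is common: it occurred in 72.3% of all 32851 windows in the RefSeq table, and in 42 of 49 windows, 85.7%, of the 41 oocyte genes that have one. Zp1, Zp2 and Gdf9 have no window in the table. A match describes the letters and not a bound site.

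Oocyte transcription factors had a lower median signal than the list of zona and growth factor genes. Of 9 measured, 8 lay above the background level and none in the top 10%, with a median of 7.30, close to the 7.27 of all genes. Nobox, a homeobox factor required for follicle growth, was brightest at 9.995, 9.83 and 9.43. Figla, which activates the zona genes, read 6.66, 6.51 and 6.23. Sohlh1 and Sohlh2, factors of early follicles, read 7.38, 6.98 and 6.71, and 7.21, 6.95 and 6.51. All of these were highest in wild type 1 and lowest in wild type 3. Obox6 at 3.31 was below the level. Taf4b itself, which is in this list, ran in the opposite order: 8.95, 9.31 and 9.50, a mean of 9.25 ± 0.28 (SD, n = 3).

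Maternal-effect genes, whose products the egg stores for the embryo, lay above the background level in 22 of 22 cases and in the top 10% in 10. Padi6, a part of the egg's cytoplasmic lattices, was brightest at 12.53, 12.33 and 12.04, rank 176. Nlrp14 and Nlrp5, the latter a core protein of the subcortical maternal complex, had means of 11.95 ± 0.14 and 11.89 ± 0.21 (SD, n = 3). Oog1 had a mean of 11.78 and Ooep, another protein of that complex, 11.44 ± 0.28. Dppa3, which guards the maternal genome's methylation, read 9.51, 9.39 and 8.86. Dnmt3l, the cofactor that DNA methyltransferases use in growing oocytes, was the dimmest at 7.59 ± 0.027. Of the 22 genes, 18 were highest in wild type 1 and 21 lowest in wild type 3, beside 41.9% and 33.1% of genes above the level in every mouse.

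Germ cell RNA-binding and meiotic arrest genes had a median of 8.21, with all 15 above the background level and none in the top 10%. Cpeb1, which controls the translation of stored mRNA, read 9.95, 9.84 and 9.52. Wee2 and Gpr3, which hold the oocyte in meiotic arrest, had means of 9.60 and 8.54. The piRNA-pathway gene Mov10l1 read 7.51, 7.26 and 6.58. The meiotic chromosome genes Sycp3 and Smc1b read 6.60, 6.22 and 5.38, and 6.93, 6.38 and 5.97. Sycp3, of the synaptonemal complex, lay under the background level in wild type 3 alone.

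Over the 4 oocyte lists together, 54 genes were measured and 53 lay above the level. The order wild type 1 over 2 over 3 held in 46 of 54 genes, 85.2%, beside 20.3% of all genes above the background level in every mouse. Wild type 1 exceeded wild type 3 in 52 of 54 genes, beside 49.4% of all genes. The median difference over the 54 was 0.35, beside 0 over all genes, and the largest was 1.23. Taf4b had the largest difference in the opposite direction, 0.55 higher in wild type 3. These genes share a cell, so the count is not one of independent measurements.

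Granulosa cell genes were bright. All 19 lay above the background level and 15 in the top 10%. Inha, the alpha subunit of inhibin, which restrains pituitary FSH, read 13.25, 13.25 and 13.27, a mean of 13.26 ± 0.013 (SD, n = 3), and ranked 32nd of all genes. Gja1, the connexin that couples granulosa cells to each other, read 13.05, 13.16 and 13.21. The protease inhibitor Serpine2 had a mean of 12.37 ± 0.028, and Slc18a2, a monoamine transporter, 12.19 ± 0.16. Hsd17b1, which makes estradiol from estrone, had a mean of 11.74 ± 0.039.

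Other granulosa genes ordered below these. Fst, the activin-binding protein, had a mean of 11.14 ± 0.13 and Amh, the hormone of small growing follicles, 11.02 ± 0.049 (SD, n = 3). Foxl2, a factor that keeps granulosa cells from turning into Sertoli cells, had a mean of 10.45. The FSH receptor Fshr read 8.96, 9.09 and 9.40. Cyp19a1, aromatase, was the dimmest of the list at 7.80, 7.18 and 8.07, and had the largest SD in it, 0.46. Inhba, the beta A subunit of inhibin and activin, followed the same order of mice, at 10.30, 9.93 and 10.71. In both genes wild type 3 was highest and wild type 2 lowest, which is not the order of the oocyte genes.

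Theca and steroid-making genes lay above the background level in 14 of 14 cases, with 2 in the top 10%. Ptch1, the hedgehog receptor, and Scarb1, which takes up cholesterol from lipoproteins, had means of 11.39 ± 0.11 and 11.07 ± 0.10 (SD, n = 3). Cyp11a1, the side-chain cleavage enzyme, read 9.61, 9.46 and 10.02. Cyp17a1, which makes androgen, read 8.71, 9.07 and 8.40, with its highest value where Cyp11a1 had its lowest. Star, which brings cholesterol into mitochondria, was the dimmest at 7.79, 7.14 and 6.73, a 2.07-fold range in linear terms. Insl3 and Lhcgr, theca-cell genes for a relaxin-like hormone and for the LH receptor, had means of 7.62 and 8.47.

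Genes that respond to the ovulatory LH surge were near the background, at a median of 6.01 beside the level of 5.70. Of 10 such genes, 8 lay above the level and none in the top 10%, beside 71.9% and 10% of all genes. Adamts1, a protease of the expanding cumulus, was brightest at 7.83. Ptgs2 and Ereg, both induced by the surge, read 5.44 and 5.30, below the level. Pgr, the progesterone receptor, read 5.35, 5.97 and 6.17, so it lay above the level in 2 mice. The 6 luteal-type and interstitial genes had a median of 7.72, with 5 above the level. Akr1c18, which inactivates progesterone, read 8.11, 7.35 and 7.89, while the prostaglandin receptor Ptgfr, at 5.63, lay below the level.

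All 12 hormone receptor genes were above the background level and 4 in the top 10%. Amhr2, the receptor of anti-Mullerian hormone, had a mean of 11.11 ± 0.15, and Esr2, estrogen receptor beta, 11.05 ± 0.10 (SD, n = 3). Igf1r, the receptor for insulin-like growth factor, had a mean of 10.57 ± 0.021. Esr1, estrogen receptor alpha, read 9.60, below Esr2 in signal. Of 7 pituitary hormone subunits, 5 lay below the level. Lhb at 6.92 and Pomc at 5.76 were the exceptions.

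The 12 fibroblast genes were all above the background level, 9 in the top 10%, with Col1a2 at 12.33 ± 0.11 and Col1a1 at 12.13 ± 0.093 (SD, n = 3), both chains of type I collagen. Dcn, the proteoglycan decorin, had a mean of 11.85. Pdgfra, a growth factor receptor of stromal and early theca cells, had the largest SD of the list, at 11.25, 10.70 and 10.76. Acta2, smooth muscle actin, which theca externa and vessel walls make, read 12.98, 13.09 and 13.06. Myh11, smooth muscle myosin, had a mean of 10.67 ± 0.14. The 10 smooth muscle and pericyte genes were all above the level, 3 in the top 10%, at a median of 9.49, and the dimmest were Notch3 at 7.79 and Cspg4 at 7.56. Of the 10, 8 were highest in wild type 2, beside 24.2% of genes above the level in every mouse.

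All 13 endothelial genes were above the background level and none in the top 10%; Emcn, a sialomucin of capillary endothelium, had a mean of 9.55 ± 0.096 and Cdh5, the adherens junction cadherin, 9.29 ± 0.066 (SD, n = 3). Macrophage genes lay above it in 11 of 13 cases, beside 71.9% of all genes, with Lyz2, lysozyme, at 8.02 and Csf1r at 7.54. Lymphocyte genes lay above it in 7 of 11 cases, beside the same share, at a median of 5.87. Their brightest, the B cell gene Ms4a1 and the T cell kinase Lck, read 7.09 and 6.44, and their dimmest, Cd3d and Cd79a, 4.60 and 3.99. Globins stood apart: Hbb-b1 read 13.14, 12.97 and 12.74, and Hba-a1 12.59, 12.47 and 12.23, with wild type 1 highest and wild type 3 lowest. The beta globin genes are near-identical copies, so their signals cannot be separated. Alas2, the heme enzyme of red cells, read 8.14, 8.02 and 7.77, in that order too. Ovarian blood content was not measured otherwise.

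Markers of surface epithelium, fat, oviduct and nerve had medians of 7.90, 7.40, 5.85 and 6.24. Krt8, a keratin, was the brightest surface gene at 9.20 ± 0.10 and Upk3b, a uroplakin of mesothelia, read 9.32, 9.12 and 8.79. Of the 12 surface genes 11 lay above the level, none in the top 10%, and 11 were highest in wild type 1, beside 41.9% of genes above the level in every mouse. Fat cell genes lay above the level in 12 of 14 cases, beside 71.9% of all genes. Among them were Car3 at 10.004 ± 0.16, Cfd at 9.02 ± 0.37 and Adipoq at 7.09 ± 0.065 (SD, n = 3). Of the 9 oviduct genes, 6 lay above the level on the mean, beside 71.9% of all genes. Ovgp1, the oviduct's secreted glycoprotein, varied most of all genes by range, reading 5.25, 7.16 and 6.69, a 3.76-fold range; wild type 1 lay under the background level. Its SD was 0.99. Tppp3 was the brightest at 7.78, and Dynlrb2 and Sntn were the dimmest at 5.15 and 4.15. Among nerve genes Dbh, an enzyme of noradrenaline synthesis, read 5.40, below the level.

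The male gonad list held 7 genes, all above the level, at a median of 6.97. Nr0b1, which granulosa cells also express, read 9.33 ± 0.090 (SD, n = 3), and Sox9, the Sertoli cell factor, 7.21, 7.23 and 7.56. Of 24 genes of other organs, 11 lay above the level, beside 71.9% of all genes, at a median of 5.49. Cpa1, a digestive enzyme of the pancreas, reached 10.83, 10.81 and 10.50, far above the rest, and Cyp2e1, a liver cytochrome, 8.60, 8.04 and 8.38. Alb, albumin, read 4.52. Which transcripts bind the probes of Cpa1 and Sry here was not tested.

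All 20 cell cycle genes were above the background level and 12 in the top 10%; Ccnd2, the cyclin that drives granulosa division, was brightest at 12.71, 12.63 and 12.59. Pcna, the replication clamp, had a mean of 11.37 ± 0.086 and Ccnb1, the mitotic cyclin, 11.21 ± 0.044 (SD, n = 3). Of the 20, 14 were lowest in wild type 1, beside 35.9% of genes above the level in every mouse. All 16 cholesterol genes were above the level, led by Fdft1, squalene synthase, at 10.96 ± 0.12 and Insig1 at 10.93 ± 0.11. The 9 translation factors, the 12 cytoskeleton and chaperone genes and the 8 glycolytic genes all lay above the level, with 8, 11 and 8 in the top 10%. Their median SDs between mice were 0.041, 0.057 and 0.056, beside 0.077 for all genes, 0.080 for the cell cycle and 0.073 for the cholesterol genes.

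Spread between the 3 mice was small for most genes. Genes above the background level in every mouse had a median SD of 0.072, and 95% had an SD below 0.21. Of all members, 0.159% had a range over 1, a 2-fold difference between the highest and lowest mouse. Over 10 classes of equal size by signal, the highest median SD was 0.087, in class 3 from the dimmest, and the lowest 0.062, in the brightest class. The authors' processing brings the arrays to a common distribution and shrinks outlying probes, so these SDs are those of processed values.

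The 24 named genes of largest SD ran from 0.88 down to 0.47, and the next gene outside was at 0.47 too. Slc38a3, a sodium-coupled glutamine transporter that cumulus granulosa cells use to feed the mouse oocyte, led: 8.22, 9.39 and 9.95, a mean of 9.19 ± 0.88 (SD, n = 3) and a 3.32-fold range. Slc38a5, a related carrier of amino acids, read 10.31, 11.34 and 11.59, a mean of 11.08 ± 0.68 and a 2.43-fold range. In both, wild type 1 was low and wild type 3 high, which is the reverse of the oocyte genes' order. Rgs13, which shuts off G protein signals, ran the same way at 6.23, 6.87 and 7.54, and so did Car14, a membrane carbonic anhydrase, at 9.79, 10.63 and 10.82.

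The promoter of Slc38a5 is shown because that gene varied the most among genes in the top 10% of signal named here. It lies on the plus strand at chrX:8271131-8271430 in RefSeq on GRCm38.p6 and holds 2 matches of CANNTG, in capitals. Slc38a3 has no window in the table.
Slc38a5: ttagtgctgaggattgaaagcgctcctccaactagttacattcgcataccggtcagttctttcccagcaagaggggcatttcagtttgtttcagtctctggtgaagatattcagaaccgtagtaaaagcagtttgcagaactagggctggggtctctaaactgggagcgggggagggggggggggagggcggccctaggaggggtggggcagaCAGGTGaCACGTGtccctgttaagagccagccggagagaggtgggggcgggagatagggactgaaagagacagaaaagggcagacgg
Of the 200 genes of largest SD, 134 have a window, and 75.5% of their 163 windows hold CANNTG, against 72.3% of all windows. The stretch TATAAA on the sense strand was in 7.98% of them, in 9.44% of the windows of the 500 brightest genes and in 8.32% of all windows. It was in 16.0% of the windows of genes not above the background level. CANNTG was in 60.3% of the windows of the 500 brightest genes and in 77.5% of those of genes not above the level. The median number of CG dinucleotides per window was 24 for the 500 brightest and 11 for the 200, beside 7 for all windows. It was 3 for the genes not above the level.

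Other genes of large SD shared the low value of wild type 1. Tmem182 read 6.85, 8.07 and 7.79, Grb14, an adaptor of insulin receptor signalling, 10.13, 11.03 and 10.87, Bex4 9.77, 10.63 and 10.53, and Il17ra, a cytokine receptor, 7.41, 8.31 and 8.24. The RNA genes did too in part: Snhg1, a host of small nucleolar RNAs, read 8.35, 9.40 and 9.33, and Dancr, a long noncoding RNA, 7.04, 7.87 and 7.96. Rnu2-10, a U2 spliceosomal RNA, read 9.72, 9.06 and 10.41, with 7 probe sets of near-identical copies, and Snord22, a small nucleolar RNA, 7.15, 7.12 and 8.35. Over the 24 genes wild type 1 was lowest in 17 and highest in 3, namely Star, Mov10l1 and Smc1b. Of genes above the level in every mouse, 35.9% were lowest and 41.9% highest in wild type 1.

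Over the 200 genes of largest SD, wild type 1 was lowest in 97, or 48.5%, and wild type 3 highest in 86, or 43%. Over all genes above the level in every mouse, these shares were 35.9% and 34.0%. The 200 were picked by their SD in these same mice. The pair of highest in wild type 3 and lowest in wild type 1 occurred in 30.5% of the 200, beside 20.9% of all genes above the level in every mouse. The reverse pair, the order of most oocyte genes, occurred in 21.0% of the 200 and in 22.6% of all. Probe sets of the same gene that did not repeat each other's values deviated alike. Across 913 genes with at least 2 of them, the deviations of wild type 1, 2 and 3 in the brightest and the next brightest correlated at 0.67, 0.56 and 0.64. These are correlations across genes within a mouse, and genes are not independent replicates. For the 89 of them whose brightest probe set had an SD in the top 10%, they were 0.85, 0.77 and 0.82. Choosing genes by the spread of 1 of the values correlated raises a correlation by itself, so the higher values show no closer agreement. The RNA of 1 array serves both probe sets, so this agreement does not speak of other mice. Only exact repeats were left out. The Pcna probe sets, for example, read 11.27, 11.42 and 11.42, and 11.27, 11.41 and 11.42. Whether such pairs share probes or bind the same copies was not tested.

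**Figure D3:**
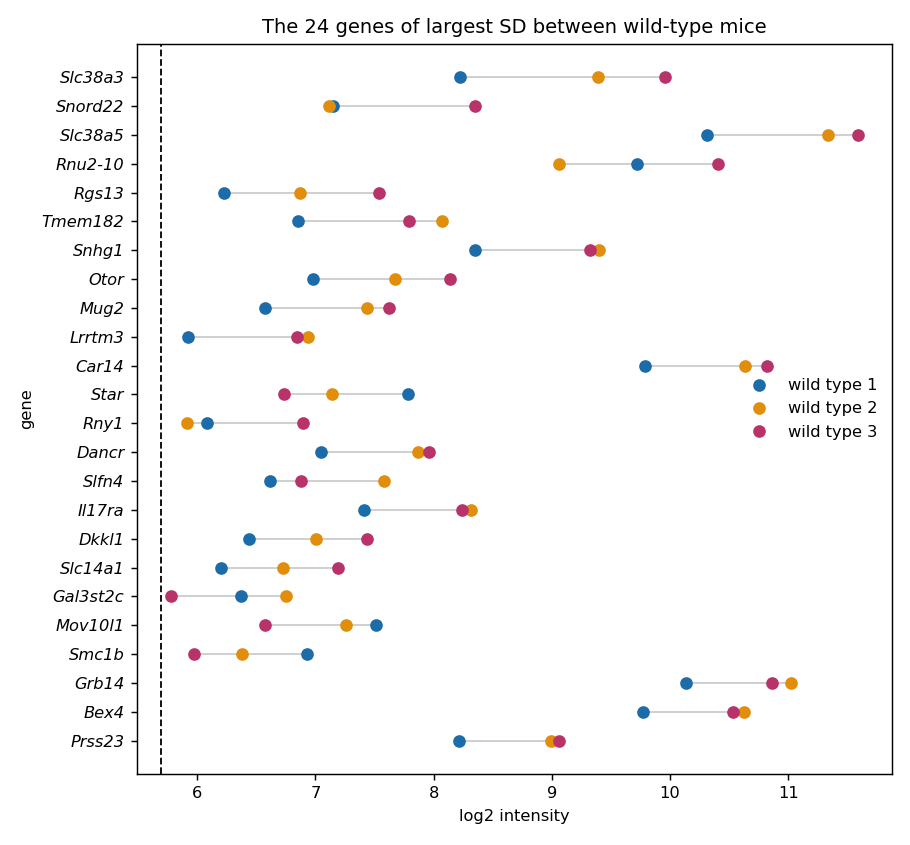
Each row is a gene, its 3 points are the log2 intensities in wild type 1, 2 and 3, and the dashed line is the background level of 5.70. Wild type 1 is lowest in 17 of the 24 rows, beside 35.9% of genes above the level in every mouse. Slc38a3 at the top runs from 8.22 to 9.95.

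Gene lists were compared between mice by the median over members of a mouse's deviation from the mean of the 3. Over all genes these medians were 0.0047, -0.0014 and 0. Of the 29 lists, 6 had a range over 0.25 between mice and 12 a range under 0.1. Among the 6 were the 4 oocyte lists, at 0.40 for zona and growth factors, 0.40 for transcription factors, 0.33 for maternal-effect genes and 0.39 for germ cell RNA genes. The list of erythroid cells and platelets had a range of 0.34, just over that of the maternal-effect genes, and the surface epithelium 0.25. The zona and growth factor list stood at 0.20 in wild type 1 and -0.20 in wild type 3, and the erythroid list at 0.15 and -0.18. The deviations of the granulosa list spanned 0.052. Erythroid markers thus moved with the oocyte markers between the mice, and their part in that was not tested.

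**Figure D4:**
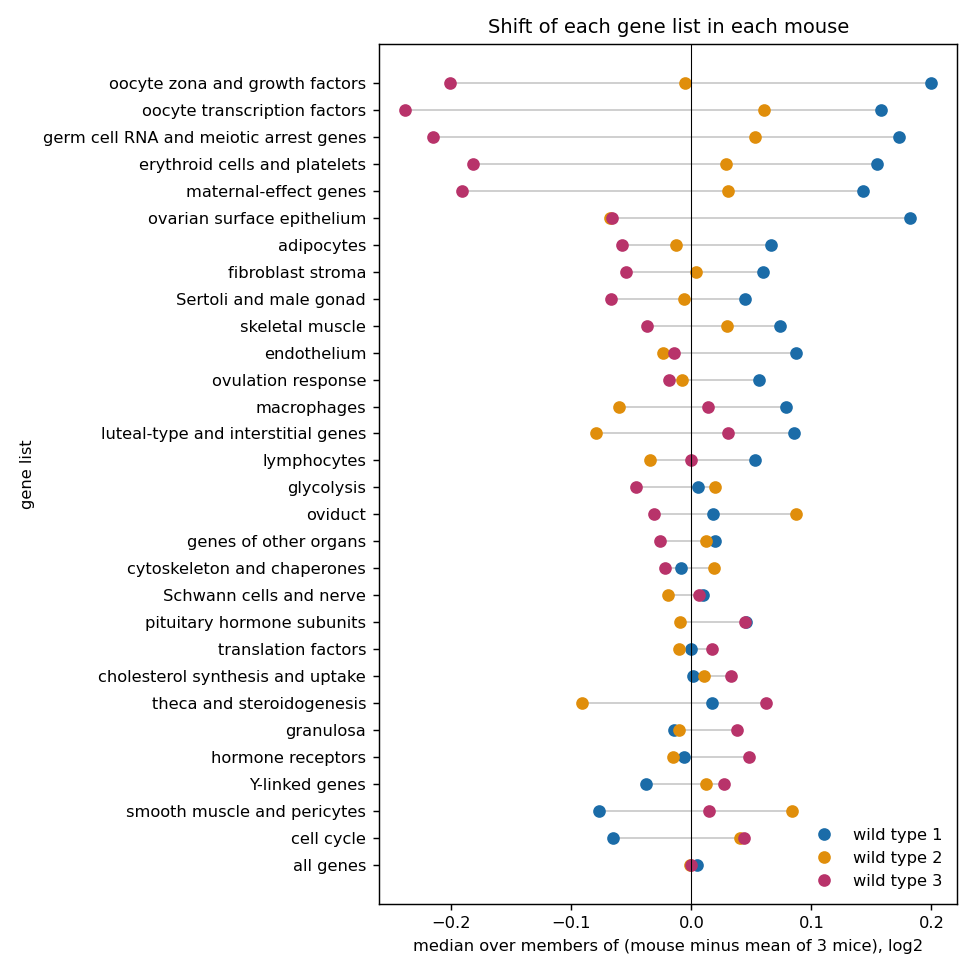
The horizontal axis is the median over the members of a list of the difference between a mouse and the mean of the 3 mice, on the log2 scale; each row is a list and each colour a mouse. The 4 oocyte lists and the erythroid list span 0.33 to 0.40 with wild type 1 at the right, while the row of all genes spans 0.0060.

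Genes that varied between wild-type mice also varied within the other genotypes. Of the 200 genes of largest wild-type SD, 139, or 69.5%, lay in the top 10% of the SD pooled within the 3 heterozygous and the 3 labelled knockout mice, against 10% of all genes by construction. Their median SD within those genotypes was 0.28, beside 0.10 for all genes above the background level. Of the 24 named genes, 22 lay in that top 10%. Slc38a3 had SDs of 0.97 within the heterozygous and 1.37 within the labelled knockout mice, and Slc38a5 of 0.50 and 1.07. Snhg1 had 1.05 and 1.18, Star 0.97 and 0.60. Mov10l1, by contrast, had 0.17 and 0.14, and Slc14a1, a urea transporter, 0.15 and 0.23; these were the 2 outside. Whether the arrays share steps of handling was not tested.

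**Figure D5:**
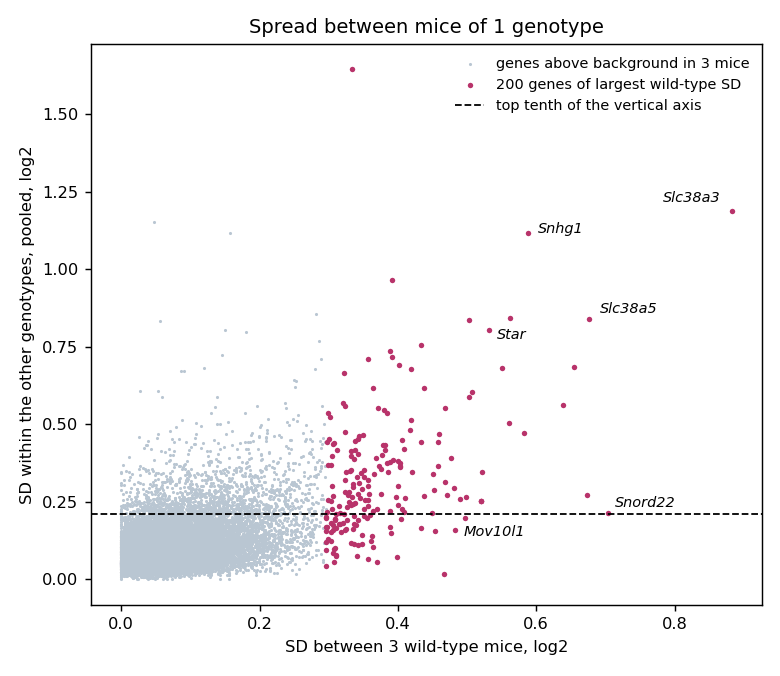
Each point is 1 of 15637 genes above the background level in all 3 wild-type mice, with its SD between them on the horizontal axis and its SD pooled within the other genotypes on the vertical axis, both on the log2 scale. Of the 200 genes of largest wild-type SD, in colour, 139 lie above the dashed line, which marks the top 10% at 0.21.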

How the data were processed

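Whole ovaries of 9 mice aged 3 weeks were profiled on Mouse Gene 1.0 ST arrays, from 300 ng of total RNA per mouse, per the series' design text. Per that text, the authors derived each deposited intensity by RMA-Sketch (Expression Console 1.1), a method that corrects background, normalizes arrays to each other and summarizes probes into probe sets. The values deposited are linear intensities; log2 values were computed from them here. Values of the wild-type arrays in the other deposited table were equal in all 84798 cells.

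Symbols of the deposited annotation were updated through the RefSeq gene table, 18708 by accession, 2211 by symbol and 1751 by synonym, and 2279 kept the file's name. Of the symbols, 26 had been turned into dates by a spreadsheet and were restored from the description or accession where possible, leaving 1. Another 151 probe sets name several genes and were named for none.

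Means and SDs are over the 3 mice, with Python 3.11.15, pandas 2.3.3 and numpy 2.4.6. Their number limits the precision, and arrays have no counts. Functions were tested on simulated data.

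Genes were named by rule: the 30 brightest, leaving out predicted genes, clones, ribosomal protein and mitochondrial genes; the 24 of largest SD above the background level in all 3 mice; of each list the 5 brightest, the 2 of largest SD and the 2 dimmest, from which the text takes examples; and Taf4b and Xist. Others were chosen after their values were seen: Zfp57 and Olfr976, and the list members Adipoq, Alb, Amh, Esr1, Foxl2, Fst, Gpr3, Lhcgr and Oosp1. The members and lists were chosen with earlier results of these data known. Alternatives were another background level, normalization, unit counted and leaving out each mouse. Some genes that the naming rule takes are not reported here.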

Additional observations from a re-analysis of the deposited data

Results flagged for a closer look

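Signal was present in probe sets outside the members, those without a gene symbol. Of these 3166, 1179 had a mean above the background level, a smaller share than the 71.5% of the 25100 with a symbol. A range over 1 between the wild-type mice was seen in 50 of the 3166, against 40 of the 25100. The widest range belonged to a probe set with intensities of 9.67, 102 and 1262 in wild type 1, 2 and 3, and another read 253, 1874 and 7084. Both were lowest in wild type 1 and highest in wild type 3. The array annotation describes both as cDNAs without a gene symbol, on chromosomes 9 and 2. Other probe sets placed near the former on chromosome 9 rose in the same order, the widest of them with 10.9, 30.2 and 277. The identity of these probe sets was not tested. No group here has the 4 mice that a search for an outlying sample needs.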

How the results depend on the processing

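The share of members above the background level ran from 54.0% to 71.9% over the alternatives; it was 58.3% at the 99th percentile of the olfactory receptors and 54.0% at the level of Sry, the highest Y-linked gene. The share with a range over 1 stayed between 0.126% and 0.187% under other normalizations and units of counting, the count without repeated probe sets being added after the data were seen. Leaving out a mouse lowered it to between 0.0518% and 0.0797%, since a range over fewer mice is narrower. Of the 29 list medians, 18 or 19 lay above that of all genes under each alternative. The number of lists with a range over 0.25 between mice was 5 to 7. Of the 30 brightest genes, 27 to 30 remained among the 30. The share of the 200 variable genes in the top 10% elsewhere was 59.0% to 74.0%. Single list medians moved by more than the SD between mice in 8 of 174 cases, and differences between wild type 1 and 3 in 10 of 116. Of those 116, 7 had another sign than the value reported, in 6 lists, none of them an oocyte list, and all sizes there were at most 0.074. No paired analysis was possible because the results come from 1 genotype and from no test. Signal rank is limited by probe affinity, and 3 mice limit every SD.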

Other observations

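Small nucleolar RNAs, which guide the modification of ribosomal RNA, were described after their values were seen. Among 452 probe sets described as such, 168 lay above the background level, a smaller share than the 71.5% of all members. Of the 452, 345 carry no gene symbol and lie outside the members, as do 111 of the 168. Of the 168, 127 were lowest in wild type 1 and 119 highest in wild type 3. The same held for 35.9% and 34.0% of genes above the level in every mouse. The 168 had median deviations of -0.18, 0.035 and 0.16 and a median SD of 0.20. Host genes of such RNAs ran the same way in part: Snhg5 read 8.56, 8.96 and 9.08, Snhg16 6.87, 7.15 and 7.42, and Taf1d 9.42, 10.21 and 10.13, while Snhg8 read 5.71, 5.70 and 5.75. Gas5, the brightest host, read 11.77, 11.92 and 11.99.

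By chromosome, 82.0% of the 623 measured genes on chromosome 12 lay above the background level, 64.1% of 794 on the X chromosome and 6.25% of 16 on the Y chromosome. The share was 66.2% of 1124 on chromosome 6, 67.2% of 1801 on chromosome 7 and 67.3% of 1732 on chromosome 2. Of all genes, 71.9% lay above the level. The level was set on olfactory receptor probe sets, so a chromosome with many of them has a lower share by construction. Their number per chromosome was not counted.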
